A study of Bos taurus with 17 samples.

Results

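TM4SF1 and 9 of its relatives among the membrane proteins with 4 transmembrane segments were followed in bovine cumulus cells, which wrap the oocyte inside its follicle. These genes were 4 members of the L6 family (TM4SF1, TM4SF18, TM4SF4 and TM4SF5) and 6 tetraspanins (CD9, CD63, CD81, CD82, CD151 and CD53). They were found by their gene symbol on the array, or by the gene named in the probe's description where the array gives only a locus number, and 11 of 21475 non-control probes belonged to them. TM4SF1 was chosen by its high signal at C2 in these arrays, and the relatives by name, so the C2 values of TM4SF1 are given as a description and were not tested.

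The 3 stages of oocyte developmental competence were compared on 17 arrays of 1 animal each. NC1 cumulus cells surrounded immature prophase I oocytes with poor developmental competence from 6 prepubertal calves of 3 to 6 months, and C1 cells surrounded competent prophase I oocytes from 6 adult cows of different ages. Both kinds of complex had a compact cumulus and were aspirated after slaughter from small follicles. C2 cells, with an expanded cumulus, surrounded metaphase II oocytes from 5 non-lactating Holstein cows of 3 to 5 years, which had received progestagen implants, an FSH/LH preparation and prostaglandin before ovum pick up from large follicles. NC1 and C1 differed also in the animals' age, and C2 differed from C1 also in hormone treatment, in follicle size and in how the complexes were collected, so that these cannot be told apart from the stage. The labels give the source as ovarian follicles, and the study's methods describe cumulus cells separated mechanically from the oocytes.

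Tetraspanins cross the membrane with 4 segments and expose a small and a large loop outside the cell. They gather integrins, immunoglobulin-like proteins and proteases into patches of the membrane, and several of them are abundant in endosomes and in the vesicles that cells release. The L6 proteins share this layout but form a separate family. TM4SF1, the first of them to be described, is known as a tumour cell antigen and is abundant in endothelium, where it takes part in the formation of thin cell projections and in migration. In the ovary, CD9 is best known from the oocyte surface, where it is needed for fusion with sperm.

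Levels are log2 signals after subtraction of the median of the array, so that 0 is the array's median probe, and levels of different probes are not comparable. A gene was tested where its probe was present in each stage on no fewer than 80% of arrays, and called when the adjusted p of limma (Benjamini-Hochberg over 13865 probes) was under 0.01. Of the 11 probes, 10 were tested. Errors are SD between arrays of a stage or, for changes, SE of the fit. Between 66.2% and 82.8% of probes were well above background on an array, and no spot was saturated. Precision is limited by how many arrays each stage had. In these bulk samples, fewer cells of a type and less RNA per cell cannot be told apart.

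The cumulus origin and the stage were checked against marker genes. All 7 granulosa and cumulus markers (FSHR, AMH, CYP19A1, FOXL2, INHA, INHBA and HSD17B1) were measured at each stage, and 5 of them were lower at C2 than at C1, where 12.8% of all probes tested were called lower and 15.3% higher. The 4 cumulus expansion genes on the array (HAS2, PTX3, TNFAIP6 and PTGS2) were all higher at C2 than at C1. Some C2 arrays stood apart in markers of other cells. VWF, the clotting factor of endothelium, was at 2.46 and 1.94 on C2 replicates 1 and 5. On the other 3 C2 arrays it was between -3.60 and -2.94, and replicate 2 was not well above background. PLVAP, of endothelial openings, was at 1.01 and 1.31 on replicates 1 and 5 and between -1.54 and -0.88 on the others. The other tested endothelial markers were mixed. CLDN5 was also higher on replicates 1 and 5 (-0.54 and -0.47) than on the others (-2.11 to -1.73). KDR and PECAM1 were lower there, KDR at -0.19 and 0.64 against 0.98 to 3.42 on the others. TEK and TIE1 did not separate these arrays. KRT5, a keratin of lining epithelium, was at 7.42 and 6.85 on C2 replicates 3 and 4 but between -1.18 and -0.71 on the other 3 C2 arrays, and MUC1, a mucin of the epithelial surface, was at 4.90 and 4.01 on the same arrays and between -2.51 and -2.04 on the others. C2 replicate 2 had the lowest mean of 8 leukocyte markers (-0.78), while the other C2 arrays had means of 0.87 to 2.31.

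The 60-base probes of TM4SF1 and of its neighbour TM4SF18 are shown first because the comparison of these L6 genes rests on them, and those of CD63 and the CD63-like locus LOC539562 because both read a similar change. Capitals mark the longest run of bases, 5 in each pair, that the probes of a pair share on the printed strand.
TM4SF1: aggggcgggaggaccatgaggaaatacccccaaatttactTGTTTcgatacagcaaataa
TM4SF18: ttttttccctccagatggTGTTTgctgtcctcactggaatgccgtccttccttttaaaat
CD63: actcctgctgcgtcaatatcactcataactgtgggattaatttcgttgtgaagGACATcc
LOC539562: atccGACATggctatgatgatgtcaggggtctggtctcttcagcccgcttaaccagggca
Among all 45 pairs of the 10 member probes with a sequence in the deposited table, the longest shared run, on either strand, was 9 bases.

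TM4SF1 was low in both immature stages and high on every C2 array. Its level was 7.01, 5.77, 8.24, 8.96 and 8.27 on C2 replicates 1 to 5. The NC1 arrays ran from -0.81 to 1.73 (median 0.86) and the C1 arrays from -2.73 to 0.63 (median -0.38). The lowest C2 array, replicate 2, was thus far above the highest immature array. The mean level was 7.65 ± 1.26 (SD, n = 5) at C2, 0.59 ± 1.01 (n = 6) at NC1 and -0.65 ± 1.28 (n = 6) at C1. The C2 mean was 8.31 ± 0.64 (SE) above C1 on the log2 scale, 317-fold, and 7.07 ± 0.64 above NC1, 134-fold. This was the largest rise against C1 of all 13865 probes tested, followed by STAT4 with 7.18, and rank 3 against NC1, after TNFAIP6 with 7.70 and STAT4 with 7.26.

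Between the immature stages, which did not enter the choice of the gene, TM4SF1 was not called. It was 1.24 ± 0.61 lower at C1 than at NC1 on the log2 scale (limma, adjusted p = 0.530, exact 2-sided permutation p = 0.0931, 6 arrays against 6). The order of the stages was thus C2, NC1 and C1, and the last 2 overlapped. On all 6 slides the C1 array was below the NC1 array, by 0.21 to 1.92. The spread of TM4SF1 was wide at every stage, above the SD of 98.2% of all probes tested at NC1, 99.2% at C1 and 91.5% at C2.

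**Figure D1:**
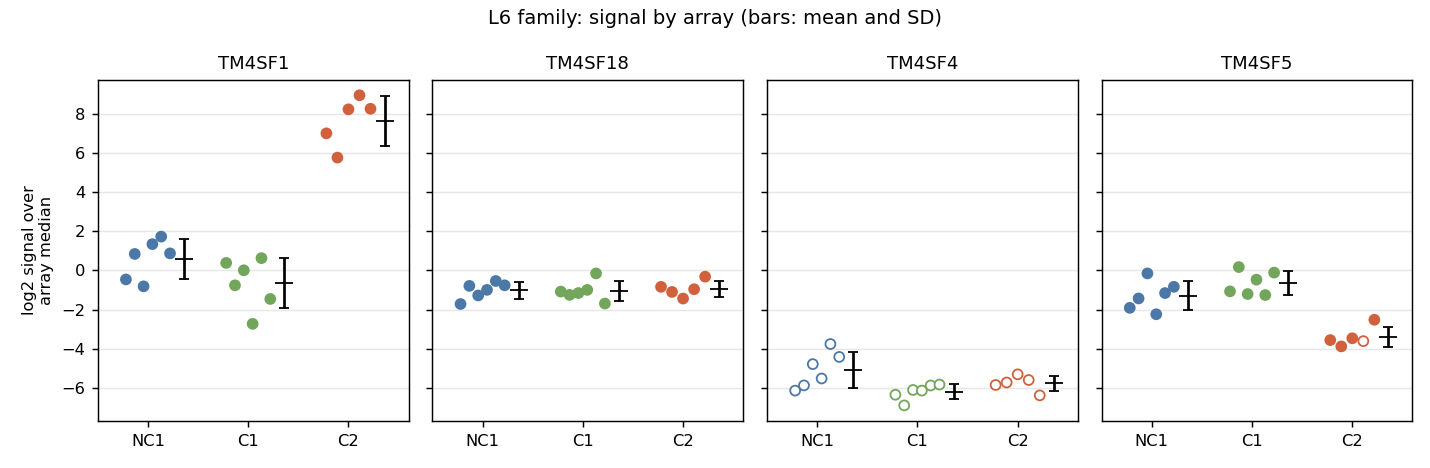
Signal of the 4 L6 family probes on each of the 17 arrays (vertical axis, log2 signal over the array median), by stage, with open circles for signals near background and bars for the mean and SD. All 5 C2 arrays of TM4SF1 lie at 5.77 or above and all immature arrays at 1.73 or below, while TM4SF18 stays between -1.72 and -0.15 on all arrays.

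TM4SF1 is known from endothelium and epithelium, and markers of both were read beside it. Of 11 endothelial markers, 7 were tested and CDH5 and EMCN, defining genes of endothelium, were not well above background on any array. Among the 7, only KDR, a receptor of VEGF, was higher at C2 than at C1, by 3.58 ± 0.50 (adjusted p = 1.69e-05). Of all probes tested, 15.3% were called higher. The summed linear level of the 7 genes, relative to the array median, was 2.27 to 3.70 at NC1, 2.18 to 2.75 at C1 and 3.47 to 12.05 at C2. Their mean log2 level overlapped between stages, at -1.95 to -1.22 at NC1, -1.95 to -1.59 at C1 and -1.91 to -0.64 at C2. Of 6 lining epithelium markers, 4 were tested, CDH1 was lower at C2 by 1.03, and their summed level was 6.53 to 7.90 at NC1, 6.21 to 8.88 at C1 and 4.98 to 208.0 at C2. Without C2 replicates 3 and 4, which carry the high KRT5 and MUC1 signals, TM4SF1 was 7.67 above C1 and 6.43 above NC1. Without C2 replicates 1 and 5, which carry the high VWF and PLVAP signals, it was 8.31 and 7.07 above them. KDR was highest on C2 replicates 3 and 4 (3.21 and 3.42), so neither fit leaves out all arrays with high endothelial markers. The part of other cell types in the level of TM4SF1 was not tested. Within the first scan day TM4SF1 was 7.17 above C1, and within the second, with 2 C2 arrays, 9.76.

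On the RefSeq assembly ARS-UCD2.0, TM4SF1 lies on chromosome 1 between TM4SF4 and TM4SF18. The array names no genome build, and no coordinates are given. Of the 6 protein-coding genes nearest to it, 3 on each side, TM4SF18, WWTR1 and COMMD2 were tested. TM4SF18, an L6 protein of little known function, was at -0.84, -1.10, -1.44, -0.96 and -0.32 on C2 replicates 1 to 5, between -1.72 and -0.54 at NC1 (median -0.89) and between -1.69 and -0.15 at C1 (median -1.12). The 3 stages overlapped throughout. Its change was 0.12 ± 0.27 against C1 (limma, adjusted p = 0.738) and 0.08 ± 0.27 against NC1 (adjusted p = 0.838), with a sign that turned under 75th percentile scaling.

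TM4SF4, known from intestine and liver, was not well above background on any of the 17 arrays, so its level is not known and no fold is given. On the side of TM4SF18, CPHL1 had no probe and the probe of CP was not tested. WWTR1, a transcriptional co-activator of the Hippo pathway on the far side of TM4SF4, had a change of 0.33 against C1 (adjusted p = 0.391) and 0.26 against NC1 (adjusted p = 0.516). COMMD2, next to WWTR1, had changes of 0.77 (adjusted p = 0.0142) and 0.88 (adjusted p = 0.00626), of which the second passed the threshold.

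TM4SF5, an L6 protein known from liver and epithelial tumours, fell at C2. Its level was -3.56, -3.89, -3.47, -3.62 and -2.52 on C2 replicates 1 to 5, and replicate 4 was not well above background. At NC1 it lay between -2.24 and -0.15 (median -1.29) and at C1 between -1.26 and 0.17 (median -0.77). All 5 C2 arrays were below all 12 immature arrays. It fell by 2.75 on the log2 scale against C1 (SE 0.36, limma adjusted p = 7.89e-06) and by 2.12 against NC1 (SE 0.36, adjusted p = 0.000133), and the exact permutation p was 0.00433 in both, the smallest that 5 arrays against 6 allow. With normexp background correction the changes were -0.87 (adjusted p = 0.00318) and -0.60 (adjusted p = 0.0315), so that the size of this dim probe's change depended on the background, and the call against NC1 was lost.

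Among the 9 probes of the 8 other genes tested, 5 were called in C2 against C1 (4 higher and 1 lower), where 28.1% of all probes tested were called, 15.3% higher and 12.8% lower. In C2 against NC1, 4 were called (3 higher and 1 lower), where 28.1% of all probes were called, 15.5% higher and 12.6% lower. For 3 of the 9 probes the C2 and C1 arrays were fully apart, as they were for 21.6% of all probes, and for 3 the C2 and NC1 arrays were, as for 20.9% of all probes. The median change of the 9 probes was 0.12 against C1 and 0.08 against NC1, beside 0.02 and 0.11 over all probes. The largest rise of a relative against C1, 3.35 for CD53, was far smaller than that of TM4SF1, as the plot of the changes of all members shows.

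**Figure D2:**
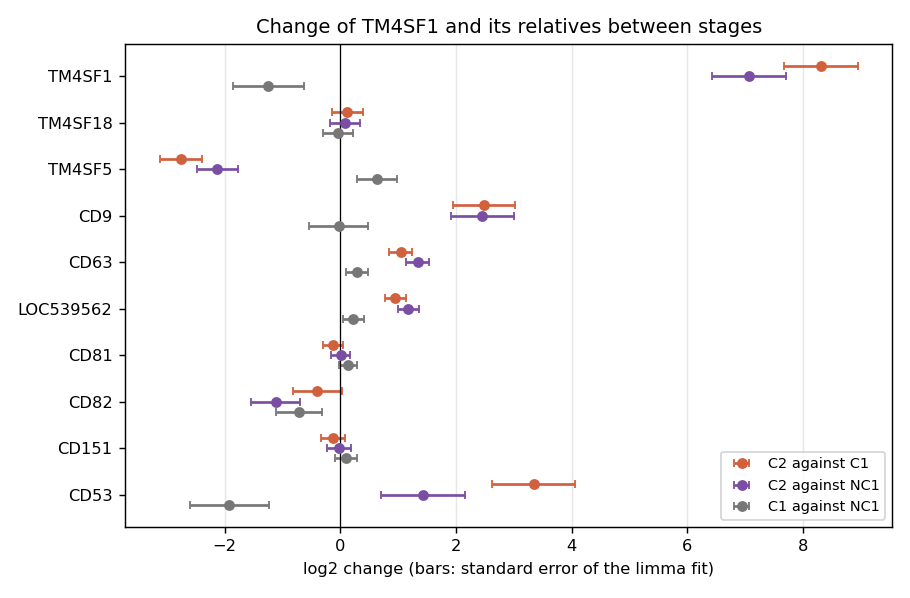
Log2 change of the 10 tested probes between each pair of stages (horizontal axis), with the SE of the fit as bars. TM4SF1 stands at 8.31 and 7.07 for C2 against C1 and NC1, CD53, CD9, CD63 and LOC539562 lie between 0.95 and 3.35 against C1, and TM4SF5 lies at -2.75.

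Among the tetraspanins named at the start, CD9, CD63 and CD53 were called higher at C2 than at C1. CD63, which cycles through lysosomes and late endosomes and marks secreted vesicles, was at 8.79, 8.48, 8.59, 9.24 and 8.34 on C2 replicates 1 to 5. It lay between 7.05 and 7.57 at NC1 (median 7.38) and between 7.11 and 8.14 at C1 (median 7.62). Every C2 array was above every immature array. The SD of CD63 was above that of 9.13% of all probes tested at NC1, 57.9% at C1 and 26.5% at C2. The rise was 1.05 ± 0.20 against C1 (limma, adjusted p = 0.000369), 2.07-fold, and 1.34 ± 0.20 against NC1 (adjusted p = 3.24e-05), with an exact permutation p of 0.00433 in both. With normexp background correction the rise against C1 was 0.96 (adjusted p = 0.0191).

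LOC539562, which RefSeq lists as a pseudogene and the array describes as similar to CD63, also rose at C2. Its level was 2.74, 2.43, 2.44, 3.10 and 2.56 at C2, between 1.19 and 1.73 at NC1 and between 1.38 and 2.17 at C1. The C2 arrays were again above all others, and replicate 4 was the highest with both probes. The change was 0.95 ± 0.18 against C1 (adjusted p = 0.000426) and 1.18 ± 0.18 against NC1 (adjusted p = 5.28e-05). Whether this probe reads CD63 RNA is uncertain.

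CD9, a tetraspanin of adhesion and membrane fusion, was at 3.71, 0.43, 3.00, 3.24 and 4.09 on C2 replicates 1 to 5. It lay between -0.94 and 1.32 at NC1 (median 0.51) and between -0.57 and 1.35 at C1 (median 0.45). On 4 C2 arrays CD9 was above every immature array, and replicate 2 lay within the range of both immature stages. CD9 rose by 2.49 ± 0.54 against C1 (limma, adjusted p = 0.00117), 5.61-fold, and by 2.46 ± 0.54 against NC1 (adjusted p = 0.00134), and the exact permutation p was 0.0173 in each. Without C2 replicate 2 the changes were 3.11 and 3.08. Without C2 replicates 3 and 4 the adjusted p was 0.0098 against C1 and 0.0104 against NC1, and without C2 replicates 1 and 5 the changes were 1.82 (adjusted p = 0.0144) and 1.79 (adjusted p = 0.0162).

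As CD9 is known from the oocyte, oocyte markers were read beside it. The 3 that were tested (GDF9, ZP3 and NLRP5) were lower at C2 than at NC1, where 12.6% of all probes were called lower. They fell by 3.30, 2.95 and 3.71 on the log2 scale, and none of them was called against C1. The summed level of these 3 genes was 29.9 to 70.8 at NC1, 4.85 to 25.9 at C1 and 3.14 to 7.61 at C2. The other 7 on the array were each well above background on some arrays but were not present in each stage. ZP2, MOS and FIGLA were well above background on 6 NC1 arrays and 0 C2 arrays, and ZP4 on 6 and 1. For BMP15 these counts were 5 and 0, for DDX4 2 and 0, and for DAZL 0 and 0. The part of oocyte RNA in the change of CD9 was not tested.

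CD53, a tetraspanin of leukocytes, was at 1.48, -1.69, 1.37, 1.56 and 2.39 on C2 replicates 1 to 5. It lay between -1.55 and 0.52 at NC1 (median -0.35) and between -4.65 and -0.34 at C1 (median -2.32), with C1 replicate 4 not well above background. On 4 C2 arrays CD53 was above all immature arrays, and replicate 2 was below all NC1 arrays and among the C1 arrays. CD53 rose by 3.35 ± 0.72 against C1 (limma, adjusted p = 0.00115, exact permutation p = 0.013), 10.2-fold. Against NC1 the change was 1.43 ± 0.72 (adjusted p = 0.124), and C1 against NC1 it was -1.92 ± 0.69 (adjusted p = 0.305, exact permutation p = 0.0281). With normexp background correction the rise against C1 was 1.98, without C2 replicates 3 and 4 it was 3.05 (adjusted p = 0.0113), and without C2 replicates 1 and 5 it was 2.74 (adjusted p = 0.0109). Without C2 replicate 2 the changes were 4.02 against C1 and 2.11 against NC1.

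Leukocyte markers were read beside CD53. Of 10 such genes, 8 were tested, 3 of them (LCP1, CD14 and TYROBP) were higher at C2 than at C1 and none lower, where 15.3% of all probes were called higher. The other 5 were not called. Their changes by limma were 2.07 for AIF1 (adjusted p = 0.0322), 1.86 for CSF1R (adjusted p = 0.0635) and 1.57 for CD68 (adjusted p = 0.0468). The defining gene PTPRC had a change of 0.73 (adjusted p = 0.0212) and CD79A one of -0.18. The median change of the 8 was 1.40, beside 0.02 over all probes. LCP1, an actin-bundling protein of leukocytes, had the largest of these changes, 3.16 ± 0.63. CD3E, of T cells, was not well above background on any immature array but was so on 4 C2 arrays. The mean level of the 8 tested markers was -0.22 to 0.93 at NC1, -0.69 to 0.10 at C1 and -0.78 to 2.31 at C2, and their summed linear level was 11.7 to 19.7, 9.84 to 19.5 and 14.7 to 44.3. C2 replicate 2 was lowest among the C2 arrays in both CD53 and these markers, and C2 replicate 5 was highest in both. CD9 was also lowest of the C2 arrays on replicate 2 (0.43) and highest on replicate 5 (4.09). Among the immature arrays CD9 did not always follow the markers: NC1 replicate 3, lowest of NC1 in them, was at 1.13 in CD9. The part of leukocytes in the changes of CD53 and CD9 was not tested.

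**Figure D3:**
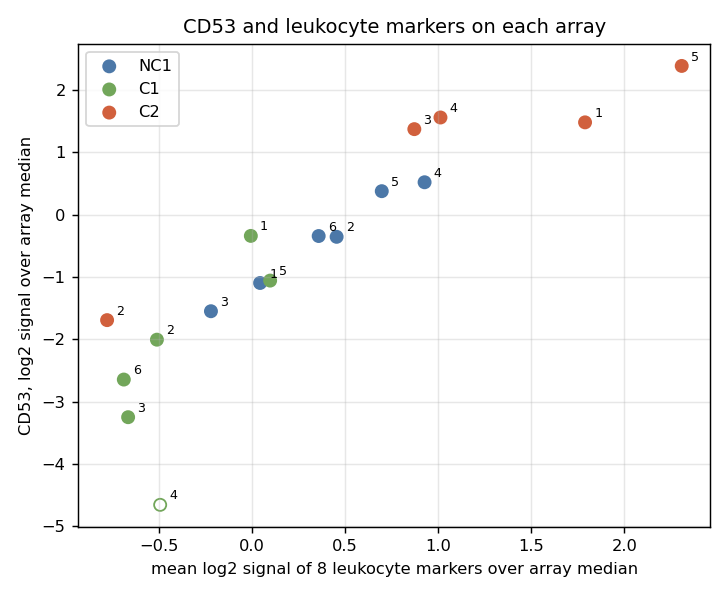
CD53 (vertical axis, log2 signal over the array median) against the mean log2 signal of 8 leukocyte markers (horizontal axis) on each of the 17 arrays, coloured by stage, numbered by replicate and open where CD53 was not well above background. C2 replicate 2 lies among the C1 arrays in CD53 and below all of them in the markers, and the other 4 C2 arrays are at 1.37 or above in CD53.

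CD81, CD151 and CD82 were not called in any of the 3 contrasts. CD81, a partner of CD9 in adhesion and fusion, was at 8.65, 8.54, 8.18, 8.38 and 8.57 at C2, between 8.29 and 8.71 at NC1 and between 8.36 and 9.12 at C1. CD151, which binds laminin-binding integrins, was at 8.93, 8.43, 8.87, 9.41 and 8.82 at C2, between 8.62 and 9.25 at NC1 and between 8.68 and 9.64 at C1. The stages overlapped for both genes. The change of CD81 was -0.13 ± 0.17 against C1 (adjusted p = 0.578) and 0.01 ± 0.17 against NC1 (adjusted p = 0.978), and that of CD151 was -0.12 ± 0.21 (adjusted p = 0.675) and -0.02 ± 0.21 (adjusted p = 0.955). The signs of these small values turned under some of the alternative settings.

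CD82, known as a suppressor of metastasis, was at 5.89, 3.25, 5.50, 5.85 and 5.64 on C2 replicates 1 to 5. It lay between 5.50 and 6.89 at NC1 (median 6.40) and between 4.77 and 6.32 at C1 (median 5.64). C2 replicate 2 was the lowest of all 17 arrays, and the other 4 lay within the C1 range. The change was -0.40 ± 0.42 against C1 (adjusted p = 0.475) and -1.11 ± 0.42 against NC1 (adjusted p = 0.0433, exact permutation p = 0.0346). Against NC1 it passed the threshold with 75th percentile scaling (-1.26, adjusted p = 0.00882) and with quantile normalization (-1.35, adjusted p = 0.00407), and without C2 replicate 2 it was -0.62.

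**Figure D4:**
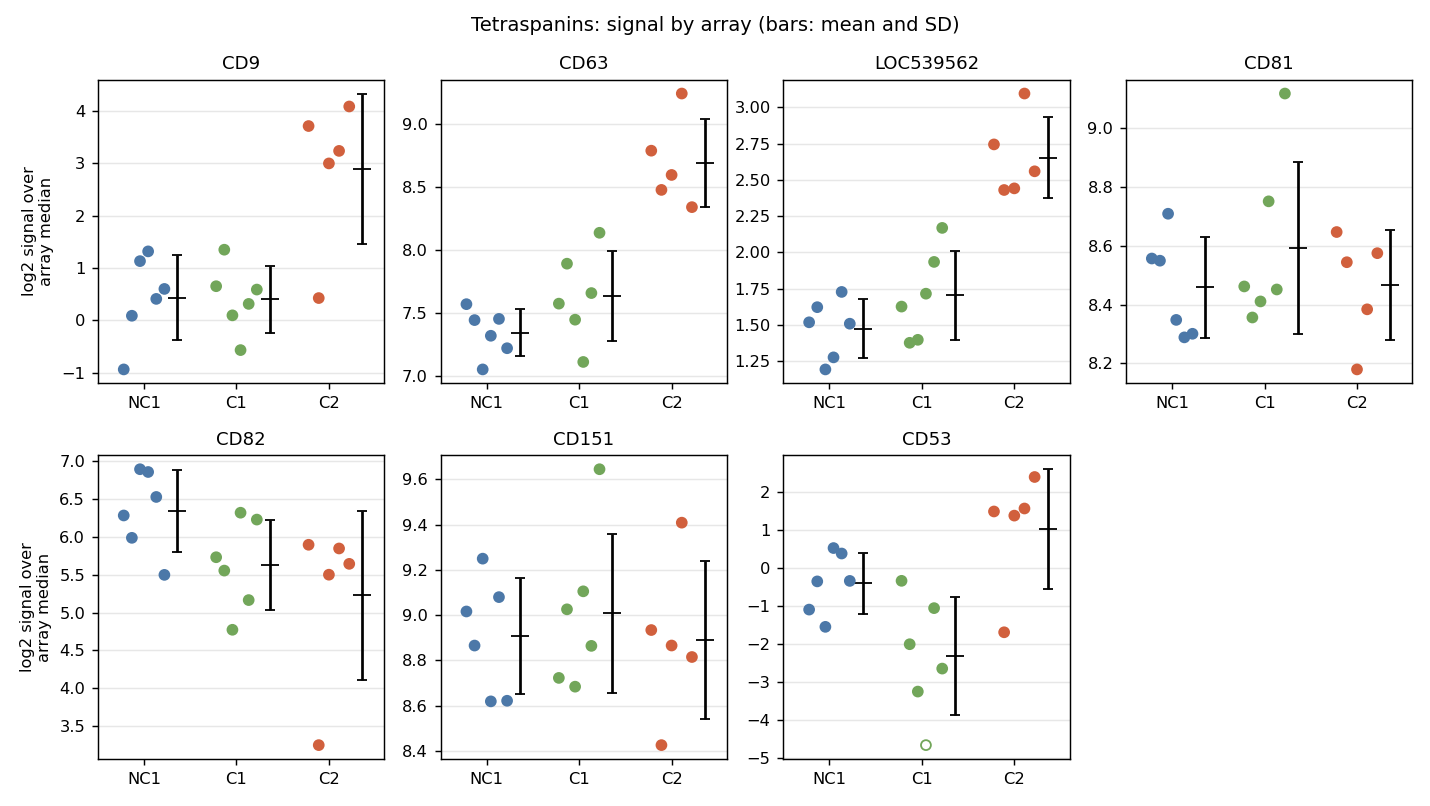
Signal of the 7 tetraspanin probes on each array (vertical axis, log2 signal over the array median, with its own range in each panel), by stage, with bars for the mean and SD and open circles where not well above background. The C2 arrays of CD63 and LOC539562 lie above all others, and C2 replicate 2 stands below the other C2 arrays for CD9, CD82 and CD53.

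Between C1 and NC1 none of the 9 relatives' probes was called by limma, where 0.0577% of all probes were called. One of them, CD53, had an unadjusted p under 0.05, and also an exact permutation p under 0.05.

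C2 replicates 1, 2 and 5 with 3 C1 and 3 NC1 arrays were scanned on the first of 2 days, and the rest on the second. Within the first day the changes against C1 were -2.51 for TM4SF5, 2.23 for CD9, 0.74 for CD63, 0.67 for LOC539562 and 2.07 for CD53, and within the second -3.04, 2.83, 1.43, 1.27 and 4.77. The directions were thus the same on both days, and on the first day, with 3 arrays a stage, only TM4SF5 passed the threshold (adjusted p = 0.00272). The C2 arrays of the second day were replicates 3 and 4, which carry the high KRT5, MUC1 and KDR signals. Scan day therefore cannot be told apart from that difference among the C2 arrays. Within slides, the C2 array was above the C1 array on 5 of 5 slides for TM4SF1, CD9, CD63 and LOC539562, on 4 of 5 for CD53 and on 0 of 5 for TM4SF5.

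The rest of the family was read from a list of 29 further genes, of which 25 were on the array and 17 were tested. Of these, 3 were higher and 1 was lower at C2 than at C1, where 15.3% of all probes were called higher and 12.8% lower, and 2 were higher and 1 lower than at NC1, where 15.5% and 12.6% were. The median change was 0.16 against C1 and 0.25 against NC1, beside 0.02 and 0.11 over all probes. TSPAN13 rose by 2.18 ± 0.22 against C1 (adjusted p = 5.31e-07). TSPAN17, which belongs to the tetraspanins that escort the protease ADAM10, rose by 0.86 ± 0.18 (adjusted p = 0.000854). In both the C2 arrays were above all C1 arrays, which was a condition for naming them. TSPAN14, another escort of ADAM10, was also called against C1 (0.72, adjusted p = 0.00736), with arrays that overlapped. The other tested escorts were not called, with changes of 1.03 for TSPAN10 (adjusted p = 0.024), -0.41 for TSPAN5 and 0.03 for TSPAN15, and neither was ADAM10 itself, with 0.09. UPK1B, a uroplakin of the bladder lining, fell by 2.04 (SE 0.30, adjusted p = 3.41e-05), from 7.22 to 7.79 on the C1 arrays to 4.65 to 6.53 on the C2 arrays.

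TSPAN12, which takes part in Norrin signalling in retinal vessels, was outside these 17 because it was not well above background on any immature array, and it is named after its values were seen. It was well above background on all 5 C2 arrays, at 1.56, -2.58, -1.19, -0.89 and 0.04. Replicate 2 was again the lowest. TSPAN12 was 35.0-fold higher at C2 than at C1 and 23.9-fold higher than at NC1. For this the dim arrays were set at the lowest signal of any probe well above background, or at their own value where higher. That signal is no limit of detection for this probe, so the size of both folds is uncertain. As it was chosen for this pattern, no test is given.

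Of 15 proteins that tetraspanins bind or sort, 13 were tested, and 5 were higher and 5 lower at C2 than at C1, where 15.3% of all probes were called higher and 12.8% lower, with a median change of 0.09 beside 0.02 over all probes. Against NC1, 5 were higher and 4 lower, where 15.5% and 12.6% of all probes were, with a median of 0.35 beside 0.11. TIMP1, an inhibitor of metalloproteases that binds CD63 at the cell surface, rose most, by 4.59 ± 0.53 against C1 (adjusted p = 1.9e-06), from 2.52 to 5.27 on the C1 arrays to 7.22 to 9.91 on the C2 arrays. SDCBP, or syntenin, which binds the tail of CD63 and serves the formation of vesicles, rose by 0.97 ± 0.19 (adjusted p = 0.000502).

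The integrins moved in both directions. ITGB1, the common beta chain, rose by 1.06 ± 0.18 against C1 (adjusted p = 0.00014) and ITGA4, an alpha chain for fibronectin and VCAM1, by 2.17 ± 0.31 (adjusted p = 2.06e-05). The laminin-binding alpha chains ITGA3 and ITGA6, with which CD151 associates, fell by 2.48 (SE 0.22, adjusted p = 6.98e-08) and 1.56 (SE 0.37, adjusted p = 0.00249), while CD151 itself was not called. The immunoglobulin-like proteins PTGFRN, the main partner of CD9 and CD81, and IGSF3 fell by 2.68 (SE 0.27, adjusted p = 4.92e-07) and 1.94 (SE 0.25, adjusted p = 5.57e-06). EGFR fell by 1.22 (adjusted p = 0.00323), and HBEGF, an EGFR ligand whose membrane form binds CD9, was called higher against C1 (1.71, adjusted p = 0.000783) with arrays that overlapped. For PTGFRN, IGSF3, ITGA3 and ITGA6 the C2 arrays were below all C1 arrays, which was a condition for naming them. The C2 and C1 arrays were fully apart for 21.6% of all probes.

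**Figure D5:**
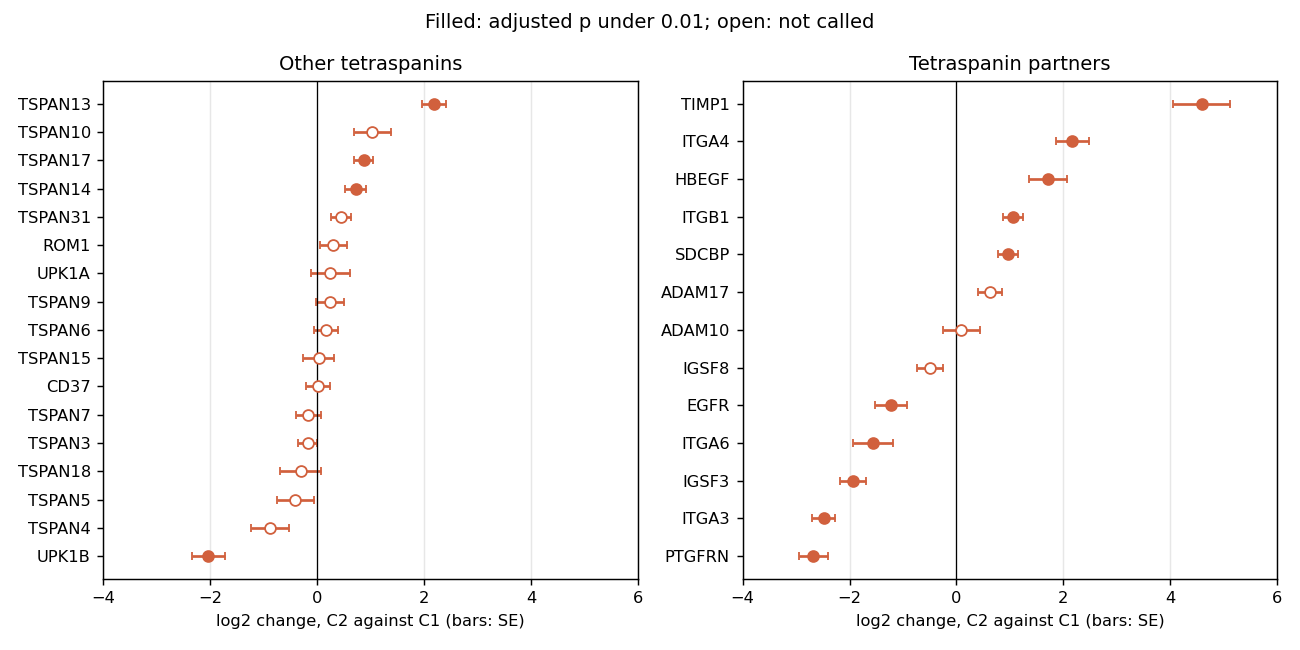
Log2 change at C2 against C1 (horizontal axis, SE of the fit as bars) of 17 other tetraspanins and 13 tetraspanin partners, filled where the adjusted p was under 0.01. In the left panel 4 genes were called, from UPK1B at -2.04 to TSPAN13 at 2.18, and in the right panel 10, from PTGFRN at -2.68 to TIMP1 at 4.59.

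The genes most like TM4SF1 over the 17 arrays were sought by the root mean square difference of log2 profiles, each centred on its own mean. The 5 closest named genes were GFPT2 (0.81), an enzyme of hexosamine synthesis, CLDN11 (1.07), a tight junction protein, TNC (1.15), a matrix protein, NTS (1.16), the precursor of neurotensin, and STAT4 (1.17), a transcription factor. Their changes at C2 against C1 lay between 6.41 for NTS and 7.18 for STAT4. GFPT2 was at 7.41, 6.28, 8.98, 8.93 and 7.84 on C2 replicates 1 to 5, lowest on replicate 2 as TM4SF1 was. Among the relatives the closest profiles were CD53 (2.52) and CD9 (2.63), the farthest was TM4SF5 (4.87), and the median over all probes was 3.71. The C2 level set most of these distances, and they are given as a description.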

How the data were processed

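Per the labels and the file headers, the authors deposited intensity values of each spot from Agilent Feature Extraction 10.5.1.1, background-corrected and not scaled between arrays. Their deposited table of log2 values, scaled by array medians, was used here as an alternative and for probe sequences. For each probe, log2 signals were averaged without non-uniform and outlying spots, and the array median was subtracted. Probes present in each stage on no fewer than 80% of arrays were fitted with limma 3.58.1 in R 4.3.3, the 3 stages in 1 fit, after a test on simulated data, with Benjamini-Hochberg adjustment at 0.01. Exact 2-sided permutation tests were run for single genes with scipy 1.17.1 (smallest p 0.00433 for 5 arrays against 6, 0.00216 for 6 against 6). Symbols came from RefSeq accessions and gene identifiers, then from the array's descriptions.

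The members and gene lists were chosen with earlier results of these data known. Named genes were all members, up to 5 rises and 5 falls per list past the threshold without overlap of C2 and C1 arrays, and the 5 closest profiles to TM4SF1. Other list genes named in the text were added after their values were seen. Alternatives changed scaling, background, filter, spots, weights, blocks, batches and arrays. Markers of theca and stroma were also read, and 6 of 7 were tested. Of these, 1 was higher at C2 than at C1, where 15.3% of all probes were called higher. It was LUM, with a change of 3.79 (limma, adjusted p = 5.43e-06). INSL3, of theca, was well above background on all arrays, with means of 6.85 at NC1, 7.52 at C1 and 6.75 at C2.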

Additional observations from a re-analysis of the deposited data

Results flagged for a closer look

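C2 replicate 2 stood apart from the other C2 arrays in 2 genes by Dixon's ratio, over 30 groups of arrays examined, of which chance flags about 1 in 20. For CD82 its level was 3.25 and the next C2 array was at 5.50, a ratio of 0.851 where the critical value is 0.71. For CD53 its level was -1.69 and the next was at 1.37, a ratio of 0.751.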

How the results depend on the processing

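TM4SF1 was higher at C2 under every alternative run, by 7.17 to 9.76 against C1 and 6.31 to 8.13 against NC1 over the settings that kept or split the arrays by scan day, and by 7.89 to 8.78 and 6.74 to 7.54 when any single array was left out. The count of relatives' probes called stayed at 5 against C1 and 4 against NC1 with any single array left out. Within scan day 1, with fewer arrays, 1 probe of the relatives was called against C1 and 0 against NC1, 2 genes of the wider family against C1 and 1 against NC1, and 4 partners against C1. Within scan day 2, TM4SF1 rose by 9.76 against C1, and 5 genes of the wider family were called against NC1. The fits without C2 replicates 3 and 4 and without C2 replicates 1 and 5 were chosen after seeing the data. Without 1 and 5 the calls of CD9 and CD53 were lost, so that 3 probes of the relatives were called against C1. In that fit 5 genes of the wider family were called against NC1. The shares of all probes called in these fits with fewer arrays are not given, so these counts cannot be set beside them. The 75th percentile scaling moved the median change of all probes from 0.02 to -0.11 in C2 against C1, and normexp moved it from 0.05 to 0.20 in C1 against NC1.

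Signs turned for uncalled values near 0, and the cause was not tested. With 75th percentile scaling TM4SF18 was -0.0039 against C1 and -0.065 against NC1, and CD81 was -0.14 against NC1. With quantile normalization CD81 was -0.26 at C2 and CD151 -0.0093 at C1, both against NC1. With normexp, against NC1, TM4SF18 was -0.020 and CD151 0.22 at C2, and CD9 was 0.065 at C1. With array weights TM4SF18 was 0.0059 at C1 against NC1, CD81 0.0075 and CD151 0.027 at C2 against C1, and CD151 0.059 against NC1. In C2 against NC1, CD81 was -0.032 with a slide block, -0.0082 with a scan day block and -0.024 as the mean within slides. Within scan day 1, C1 against NC1, TM4SF18 was 0.040 and CD9 0.67. Within scan day 2, TM4SF18 was -0.067 against C1 and -0.19 against NC1, CD81 -0.17 against NC1, CD82 0.12 against C1, and CD151 0.20 against C1 and 0.31 against NC1. Without C2 replicates 1 and 5 TM4SF18 was -0.11 against C1 and -0.15 against NC1, and CD81 -0.089 against NC1. With each array left out in turn, TM4SF18 ranged from -0.030 to 0.30 against C1, from -0.071 to 0.21 against NC1 and from -0.22 to 0.087 in C1 against NC1. CD9 ranged from -0.30 to 0.17 in C1 against NC1, CD81 from -0.038 to 0.079 in C2 against NC1, and CD82 from -0.57 to 0.093 in C2 against C1, the last without C2 replicate 2. CD151 ranged from -0.25 to 0.0095 in C2 against C1, from -0.15 to 0.097 in C2 against NC1 and from -0.028 to 0.17 in C1 against NC1.

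The replicate block gave CD151 a change of 0.016 in C2 against NC1 and changed no call of the members. The replicate numbers do not pair the arrays, since each animal gave 1 array and the correlation of deviations between arrays of the same number ran from -0.32 to 0.25 with a median of -0.074. TM4SF5, CD53 and TM4SF4 are dim, and their changes are the least certain in size.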
